A study of Mus musculus with 4 samples.

Results

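The Hedgehog ligands, receptors and targets described here are 8 genes, Shh, Ihh, Ptch1, Smo, Gli1, Gli2, Gli3 and Hhip, taken by symbol from the 27998 genes listed for each library. They were followed in single cells of 2 pancreatic tumors from KPC mice on a C57BL/6J background. KPC mice carry, among their alleles, a Trp53 allele with the R172H mutation behind a lox-stop-lox cassette (LSL), together with Pdx1-Cre, so that recombination is driven in the Pdx1 lineage, that of the pancreatic epithelium, and not by a stromal promoter. Each tumor gave a sorted CAF library, gated as DAPI-, CD45-, CD31-, EpCAM- and PDPN+ to hold cancer-associated fibroblasts (CAFs), and an all live library, gated as DAPI- only. All 4 libraries therefore share the genotype, and there was no tumor-free pancreas to set them against.

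Hedgehog ligands are secreted proteins that bind the receptor Patched 1 (Ptch1) on a receiving cell and so release Smoothened (Smo) from its inhibition. Active Smo acts through the primary cilium on the zinc finger factors Gli1, Gli2 and Gli3, of which Gli2 is the main activator and Gli3 mainly a repressor. Gli1, Ptch1 and Hhip, a membrane protein that captures the ligand, are themselves induced by the pathway and are widely used as its readouts. In pancreatic cancer the pathway is known for paracrine signalling, in which tumor epithelium makes the ligand and stromal cells respond.

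Of the 8 genes, 6 matched a RefSeq promoter entry (GRCm38.p6, 250 bases before to 50 bases after the start); Shh and Gli1 are named only. The promoters of Ihh, at chr1:74951623-74951922 on the minus strand, of the third ligand gene Dhh, at chr15:98898491-98898790 on the minus strand, and of Ptch1, at chr13:63565686-63565985 on the minus strand, are printed because the 2 ligand genes shared their pattern across cells while Ptch1, the receptor and pathway target, did not. Capitals mark the 6-base core CCACCC, or GGGTGG on the other strand, of the Gli binding sequence GACCACCCA.
Ihh: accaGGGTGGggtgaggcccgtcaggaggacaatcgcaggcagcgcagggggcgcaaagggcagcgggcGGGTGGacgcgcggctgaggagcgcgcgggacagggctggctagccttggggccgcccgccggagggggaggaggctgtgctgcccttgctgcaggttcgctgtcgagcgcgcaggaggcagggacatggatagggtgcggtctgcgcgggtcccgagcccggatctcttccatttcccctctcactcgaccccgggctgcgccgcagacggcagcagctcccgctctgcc
Dhh: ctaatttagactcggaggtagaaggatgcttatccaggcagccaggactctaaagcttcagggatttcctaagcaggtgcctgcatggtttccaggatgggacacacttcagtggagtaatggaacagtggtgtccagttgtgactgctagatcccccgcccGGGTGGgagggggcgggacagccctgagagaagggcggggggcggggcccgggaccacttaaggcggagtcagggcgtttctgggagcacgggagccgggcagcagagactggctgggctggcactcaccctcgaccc
Ptch1: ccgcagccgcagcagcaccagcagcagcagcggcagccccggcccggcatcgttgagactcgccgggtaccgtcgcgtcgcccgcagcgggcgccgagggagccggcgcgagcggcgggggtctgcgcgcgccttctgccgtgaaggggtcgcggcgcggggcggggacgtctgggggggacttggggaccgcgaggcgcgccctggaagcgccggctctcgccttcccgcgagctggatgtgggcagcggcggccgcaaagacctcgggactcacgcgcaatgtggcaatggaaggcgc
The core was found 2 times in the Ihh window, 1 time in the Dhh window and 0 times in the Ptch1 window. The Ptch1 window lies inside the annotated gene (chr13:63508328-63573598, minus strand). It does not hold the start of that gene annotation. The core occurs in 31.5% of 32851 promoter windows of the same length. The 9-base sequence, searched on both strands and containing the core, was in 0 of the 6 windows of the listed genes and in 83 (0.253%) of all windows. No match says only that these letters are not in this window.

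The libraries held 23067228 and 16239853 UMIs (unique molecular identifiers, counted molecules) in the sorted CAF fraction of tumors 1 and 2, against 30950993 and 14972652 UMIs in the all live fraction. After filtering, 7827 of 8282 barcodes were kept and grouped into classes by marker genes. Pairs of libraries shared 4 to 6 barcodes. Ductal epithelial-like cells numbered 1056 and 128 in the sorted CAF libraries of tumors 1 and 2, against 1050 and 171 in the all live libraries (the gate names EpCAM-, and the listed stain names no EpCAM antibody). Epcam itself was at 6.85 and 169 CPM (counts per 1000000 UMIs of the class or library, the level used throughout) in the ductal epithelial-like cells of the sorted CAF libraries, against 56.5 and 1799 CPM in those of the all live libraries, whereas Krt18, an epithelial keratin, was between 2522 and 6023 CPM in all 4. In the all live library of tumor 1, 1052 of these Epcam UMIs lay in the 32 cells of cluster 13. In the other epithelial clusters of tumor 1 Epcam was at 0 to 10.2 CPM in the sorted CAF library, against 8.41 to 17.3 CPM in the all live library. Fibroblast-like cells numbered 174 and 878, against 139 and 115, and their Dcn, a fibroblast proteoglycan, was between 5226 and 7787 CPM. Mesothelial-like cells numbered 148 and 53, against 125 and 12, with Upk3b between 161 and 366 CPM, and pericyte-like cells 4 and 58, against 0 and 19, with Rgs5 between 3962 and 6289 CPM. Different clusters made up a class in the 2 tumors. Epithelium of tumor 1 was mostly in clusters 0, 1, 2 and 4 and that of tumor 2 in cluster 13, and fibroblast-like cells of tumor 1 were mostly in cluster 12 and those of tumor 2 in clusters 10 and 14.

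Among the ligand genes, Ihh had the most UMIs in ductal epithelial-like cells. Of 1846 Ihh UMIs in kept cells, 1834 (99.3%) were in ductal epithelial-like cells, 7 in fibroblast-like, 1 in mesothelial-like and 4 in leukocytes. Nearly all of them came from tumor 1, with 1810 UMIs, against 36 UMIs in tumor 2. In ductal epithelial-like cells Ihh stood at 42.0 CPM (839 UMIs) in the sorted CAF library of tumor 1, 10.2 CPM (26 UMIs) in that of tumor 2, 41.9 CPM (964 UMIs) in the all live library of tumor 1 and 3.21 CPM (5 UMIs) in that of tumor 2. The tumor 1 libraries were thus close to each other and both lay above both tumor 2 libraries, with exact Poisson 95% intervals of 39.2 to 44.9 and 39.3 to 44.7 CPM in tumor 1 and of 6.67 to 14.97 and 1.04 to 7.50 CPM in tumor 2. With 1 tumor on each side this difference between the tumors has no replicate and was not tested.

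In fibroblast-like cells Ihh was at 0.842 CPM (1 UMI) and 0.469 CPM (5 UMIs) in the sorted CAF libraries of tumors 1 and 2, and at 0.818 CPM (1 UMI) and 0 UMIs in the all live libraries. The count of 0 allows up to 4.23 CPM. All 4 libraries therefore had Ihh higher in epithelium than in fibroblasts by value, except that in the all live library of tumor 2 the epithelial value of 3.21 CPM lies under that limit. In the share of cells with an Ihh UMI, ductal epithelial-like cells had 28.0% and 11.7% in the sorted CAF libraries and 31.0% and 2.34% in the all live libraries, against 0.81% of macrophage or monocyte-like cells, a class not expected to make Ihh, in the all live library of tumor 1. The median depths behind those figures differed, at 19113 UMIs in ductal epithelial-like and 6724 UMIs in macrophage or monocyte-like cells of that library. With every cell thinned to 2000 UMIs the epithelial shares were 5.59% and 4.69% in the sorted CAF libraries and 6.19% and 1.18% in the all live libraries, against 0% of 494 macrophage or monocyte-like cells, which allows up to 0.607%.

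Shh, the ligand most often studied in this cancer, was near the limit of detection, with 12 UMIs in 11 cells. Ductal epithelial-like cells held 11 of them, 10 in tumor 2 and 1 in tumor 1, and fibroblast-like cells held 0, which allows up to 0.264 CPM in tumor 2 and 1.24 CPM in tumor 1. In ductal epithelial-like cells Shh was at 0 UMIs and 1.18 CPM (3 UMIs) in the sorted CAF libraries of tumors 1 and 2, and at 0.0435 CPM (1 UMI) and 4.50 CPM (7 UMIs) in the all live libraries. The order of the tumors in this gene was the opposite of that in Ihh. Of the 10 Shh UMIs of tumor 2, 8 were in cluster 13 (5.32 CPM, 95% interval 2.14 to 11.0, in the all live library). Ihh in the same cells of that library was lower by value, at 3.80 CPM (5 UMIs, 1.23 to 8.87), with overlapping intervals.

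Dhh, the third ligand gene and not among the 8, followed Ihh and was singled out after its values were seen. In ductal epithelial-like cells it had 666 UMIs (15.5 CPM) in tumor 1 and 15 UMIs (3.66 CPM) in tumor 2, against 1 UMI (0.415 CPM) and 0 UMIs in fibroblast-like cells. Dhh overlaps Rhebl1 on the same strand, and reads of such a pair can be split by the counting. Rhebl1, in ductal epithelial-like cells, was at 10.7 and 4.32 CPM (sorted CAF libraries) and at 9.70 and 3.85 CPM (all live libraries), against 1.41 to 2.07 CPM in fibroblast-like cells, so it was higher in the same class. Its part in the Dhh values was not tested.

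Within the epithelium Ihh varied between clusters, and the 2 libraries of tumor 1 gave almost the same order. Cluster 0, led by cell cycle genes such as Rrm2 and Cdc20, had 61.6 CPM in the sorted CAF library of tumor 1 and 57.0 CPM in the all live library. Cluster 2, led by Aqp5, Krt8 and Krt19, had 45.3 and 53.0 CPM, and cluster 1, led by Gkn2 and Ttr, had 37.2 and 37.4 CPM. Cluster 4, led by Npy and Cpe, had 11.0 and 6.75 CPM, and cluster 3, led by Tff1, had 1.54 and 8.65 CPM.

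Clusters 0, 1 and 2 thus stood above clusters 3 and 4 in both libraries of tumor 1, with intervals that did not overlap. Cluster 13, the Epcam-rich cluster led by Gkn3, Wfdc18 and Epcam, had 14.9 CPM (24 UMIs) of Ihh in the sorted CAF library of tumor 2, 21.2 CPM (8 UMIs) in the all live library of tumor 1 and 3.80 CPM (5 UMIs) in the all live library of tumor 2. Dhh was again highest in clusters 0 and 2, at 24.6 and 18.4 CPM in the sorted CAF library of tumor 1 and 18.1 and 19.3 CPM in the all live library, and reached 7.94 and 8.47 CPM in cluster 1. In cluster 4 Dhh was at 12.1 and 10.9 CPM, so the clusters ranked differently for the 2 ligands there. Members were left out of the genes used for clustering, and these cluster values are given without a test because all cells of a cluster and library come from 1 tumor.

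**Figure D1:**
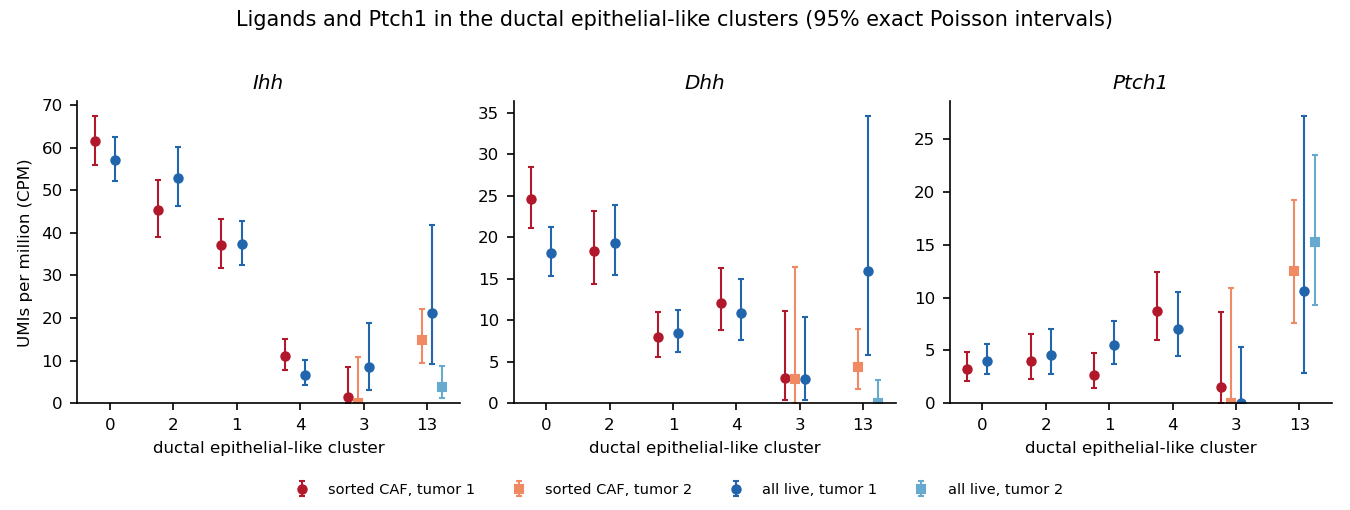
CPM (vertical axes) of Ihh, Dhh and Ptch1 in the 6 ductal epithelial-like clusters (horizontal axes), 1 point per library with at least 20 cells in the cluster and exact Poisson 95% intervals. Ihh reached 61.6 and 57.0 CPM in cluster 0 and at most 11.0 CPM in cluster 4 of tumor 1, while Ptch1 was highest in cluster 13, at 15.2 CPM in the all live library of tumor 2.

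In tumor 1, ductal epithelial-like cells with an Ihh UMI also held a Dhh UMI more often than those without. The share was 39.9% of 296 cells with Ihh and 16.6% of 760 cells without in the sorted CAF library, and 35.9% of 326 and 15.5% of 724 in the all live library. In tumor 2, of cells with Ihh 3 of 15 and of those without 9 of 113 held a Dhh UMI in the sorted CAF library, with overlapping intervals, as did 0 of 4 and 0 of 167 in the all live library. In tumor 1, cells with an Ihh UMI were also deeper, with medians of 26289 against 14333.5 UMIs and of 30684.5 against 15135.5 UMIs, and the part of depth in the shares was not tested.

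The receptor Ptch1 was spread over classes more evenly than the ligands. Of its 505 UMIs, 239 were in ductal epithelial-like, 147 in fibroblast-like, 39 in mesothelial-like and 9 in pericyte-like cells. Leukocytes held 51 and blood endothelial-like cells 8. Blood endothelial-like cells had only 328451 UMIs over all genes, against 13768653 in fibroblast-like cells. Their Ptch1 rate was thus above the fibroblast rate by value, though from few counts. In ductal epithelial-like cells it was at 4.20 and 8.64 CPM in the sorted CAF libraries of tumors 1 and 2 and, in the all live libraries, at 4.91 and 12.8 CPM. In fibroblast-like cells it was at 9.26 and 10.5 CPM in the sorted CAF libraries and, in the all live libraries, at 14.7 and 8.47 CPM.

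Epithelial Ptch1 was therefore under the fibroblast value in both libraries of tumor 1, and in tumor 2 it was under it in the sorted CAF and above it in the all live library, within the Poisson intervals. Most of the epithelial Ptch1 of tumor 2 lay in cluster 13, at 12.5 CPM in the sorted CAF and 15.2 CPM in the all live library, against 10.6 CPM (4 UMIs) in that cluster in the all live library of tumor 1. In macrophage or monocyte-like cells the all live libraries of tumors 1 and 2 had Ptch1 at 2.69 and 3.78 CPM, from 2.02% and 1.37% of cells.

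Smo, the transducer that Ptch1 inhibits, was present in fibroblast-like, mesothelial-like and pericyte-like cells, while blood endothelial-like cells held 1 UMI of it. In fibroblast-like cells it was at 35.4 and 32.0 CPM in the sorted CAF libraries of tumors 1 and 2 and, in the all live libraries, at 22.9 and 35.3 CPM. In mesothelial-like cells it was at 28.4 and 55.8 CPM in the sorted CAF libraries and, in the all live libraries, at 44.8 and 56.7 CPM, the last from 12 cells and 6 UMIs. In ductal epithelial-like cells it was at 7.90 and 24.4 CPM in the sorted CAF libraries and, in the all live libraries, at 5.35 and 12.8 CPM.

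Within each library the epithelial Smo value was the lowest of the 3 classes. Smo differed between the tumors in the epithelium, where both libraries of tumor 2 stood above both of tumor 1, the reverse of Ihh. Pericyte-like cells had 26.4 CPM (14 UMIs) in the sorted CAF library of tumor 2. Hhip, the ligand trap, had 2 UMIs in kept cells, 1 in ductal epithelial-like and 1 in fibroblast-like cells, and gives no comparison.

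The Gli factors were nearly confined by count to the mesenchymal classes. Gli3 had 247 of its 327 UMIs in fibroblast-like, 67 in mesothelial-like, 7 in pericyte-like and 2 in ductal epithelial-like cells, although the epithelial sums were the deepest, with 42988844 UMIs in tumor 1 against 2410463 UMIs in fibroblast-like cells. Gli2 had 106 of 125 UMIs in fibroblast-like, 16 in mesothelial-like, 2 in pericyte-like and 1 in ductal epithelial-like cells. Gli1 had 68 of 90 UMIs in fibroblast-like, 19 in mesothelial-like and 2 in ductal epithelial-like cells, and 1 in leukocytes.

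In fibroblast-like cells Gli3 was at 18.5 and 18.6 CPM in the sorted CAF libraries of tumors 1 and 2 and, in the all live libraries, at 9.81 and 21.2 CPM. Gli2 was at 8.42 and 7.61 CPM in the sorted CAF libraries and, in the all live libraries, at 8.18 and 7.06 CPM. Gli1 was at 9.26 CPM (11 UMIs) and 4.13 CPM (44 UMIs) in the sorted CAF libraries and at 9.81 CPM (12 UMIs) and 1.41 CPM (1 UMI) in the all live libraries. Gli2 was thus nearly level by value over the 4 libraries, but from few UMIs. The whole all live library of tumor 2 held 8 Gli2 UMIs, so larger differences could be missed. Gli1, the readout gene, stood higher by value in both libraries of tumor 1 than in both of tumor 2. Its Poisson intervals overlapped (4.62 to 16.6 CPM against 3.002 to 5.55 CPM in the sorted CAF libraries).

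**Figure D2:**
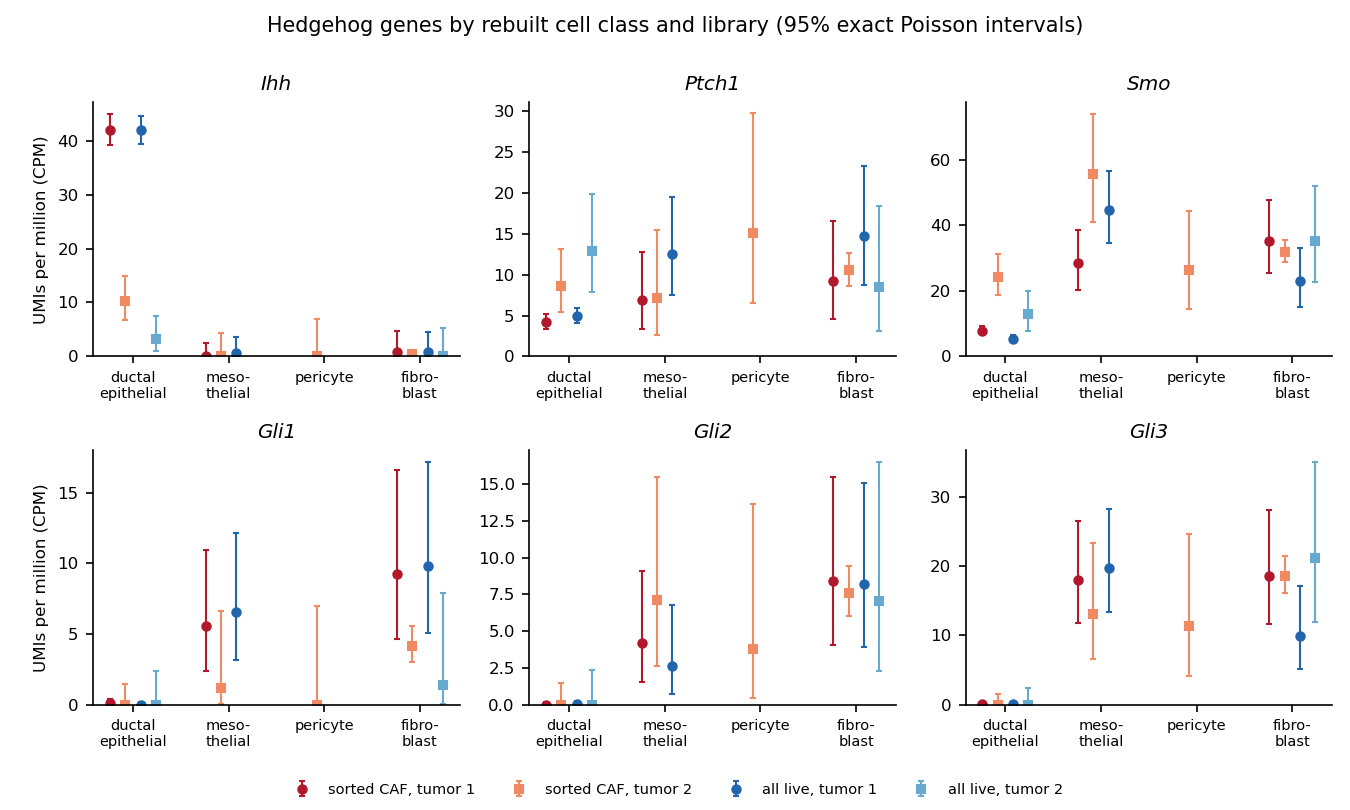
CPM (vertical axes) of 6 Hedgehog genes in 4 rebuilt classes (horizontal axes), 1 point per library with at least 20 cells of the class and exact Poisson 95% intervals. Ihh stands out in ductal epithelial-like cells of tumor 1 at 42.0 and 41.9 CPM, Gli1, Gli2 and Gli3 lie at or near 0 there, and Ptch1 appears in every class shown.

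Ductal epithelial-like cells were then compared with fibroblast-like cells over sums per tumor, with the tumor as a block, in edgeR's quasi-likelihood test over 12528 genes and Benjamini-Hochberg adjustment. Of the 8 genes, 4 passed the filter on low counts. Ihh was higher and Smo and Gli3 were lower in ductal epithelial-like cells, so 3 of the 4 tested passed, beside a background of 29.9% of all genes tested (13.2% higher and 16.7% lower). Nothing is read from that count, because Ihh and Gli3 passed the filter only through classes in which they are high and so had to differ. Smo and Ptch1 had counts in both classes. Ihh had a log2 fold change of 4.71 ± 0.77 (SE, adjusted p = 0.00166 by edgeR) and was higher in the epithelium of both tumors. Smo had -1.36 ± 0.40 (adjusted p = 0.0226) and Gli3 -7.96 ± 1.09 (adjusted p = 4.12e-04), both lower in the epithelium of both tumors. Ptch1 had -0.63 ± 0.44 and did not pass (adjusted p = 0.318). Gli1, Gli2, Shh and Hhip had too few counts to be tested.

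The Gli3 fold change rests on 2 epithelial UMIs, so its size is better read from the counts. In tumor 1 the epithelial Gli3 rate was 0.0033 times the fibroblast rate (exact 95% interval 3.84e-04 to 0.0129, counting error only). In tumor 2, with its 0 UMIs set to the floor of 3 counts, it was 25.6-fold lower. Such floor values leave out the counting error of the fibroblast UMIs, so they are not lower limits. For Gli2 the ratio was 0.0028 (6.8e-05 to 0.0175) in tumor 1, and by the floor the epithelial rate was 10.4-fold lower in tumor 2. For Gli1 the ratio was 0.00488 (5.57e-04 to 0.0197) in tumor 1, and by the floor the epithelial rate was 5.42-fold lower in tumor 2.

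These calls depended on the tool. DESeq2's Wald test gave the same 3 directions but adjusted p = 0.665 for Ihh, 0.114 for Smo and 0.0548 for Gli3, and Smo also missed without the tumor block (adjusted p = 0.167). Without cluster 13, an alternative chosen after seeing the data, Ptch1 was called lower in epithelium (-1.46 ± 0.49, adjusted p = 0.0341 by edgeR). Ductal epithelial-like cells of tumor 2 had 42 Ptch1 UMIs. Cluster 13 held 20 of them in each library, so this fit kept very few from that tumor.

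The other listed pathway genes were read in the same comparison, by role. Among co-receptors, 3 of 4 tested were lower in ductal epithelial-like cells and 0 higher. These were Gas1 (-3.93 ± 0.51, adjusted p = 2.04e-04), Boc (-7.15 ± 0.90, adjusted p = 3.89e-04) and Cdon (-4.65 ± 0.85, adjusted p = 0.00234), which bind the ligand together with Ptch1. In tumor 1, Gas1 was at 8.05 CPM in ductal epithelial-like and 203 CPM in fibroblast-like cells, and in tumor 2 at 23.2 and 234 CPM.

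Among 5 tested genes of ligand making and release, Dhh was higher (5.92 ± 1.37, adjusted p = 0.0122) and 1 was lower. Of 4 tested intracellular regulators 3 were lower, and of 5 tested cilium assembly genes 0 passed in either direction by edgeR. Of 6 tested stromal target genes, Ccnd1, the cyclin D1 gene, was higher (4.96 ± 0.50, adjusted p = 3.41e-05), and the transcription factor genes Osr1 (-7.59 ± 0.48, adjusted p = 1.82e-05) and Foxf1 (-5.96 ± 0.91, adjusted p = 7.70e-04) were lower. The medians of the log2 fold changes were -0.26 for ligand making and release, -4.29 for co-receptors, -1.44 for intracellular regulators, -0.63 for cilium assembly and 0.74 for stromal targets, beside 0.05 over all tested genes. Pathway genes that passed the filter only through classes in which they are high, such as Dhh, Boc, Cdon, Foxf1 and Osr1, had to differ. Boc, for instance, had 4 of its 354 UMIs in ductal epithelial-like cells. Neither the adjusted p of such genes nor these counts and medians carry weight of their own.

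**Figure D3:**
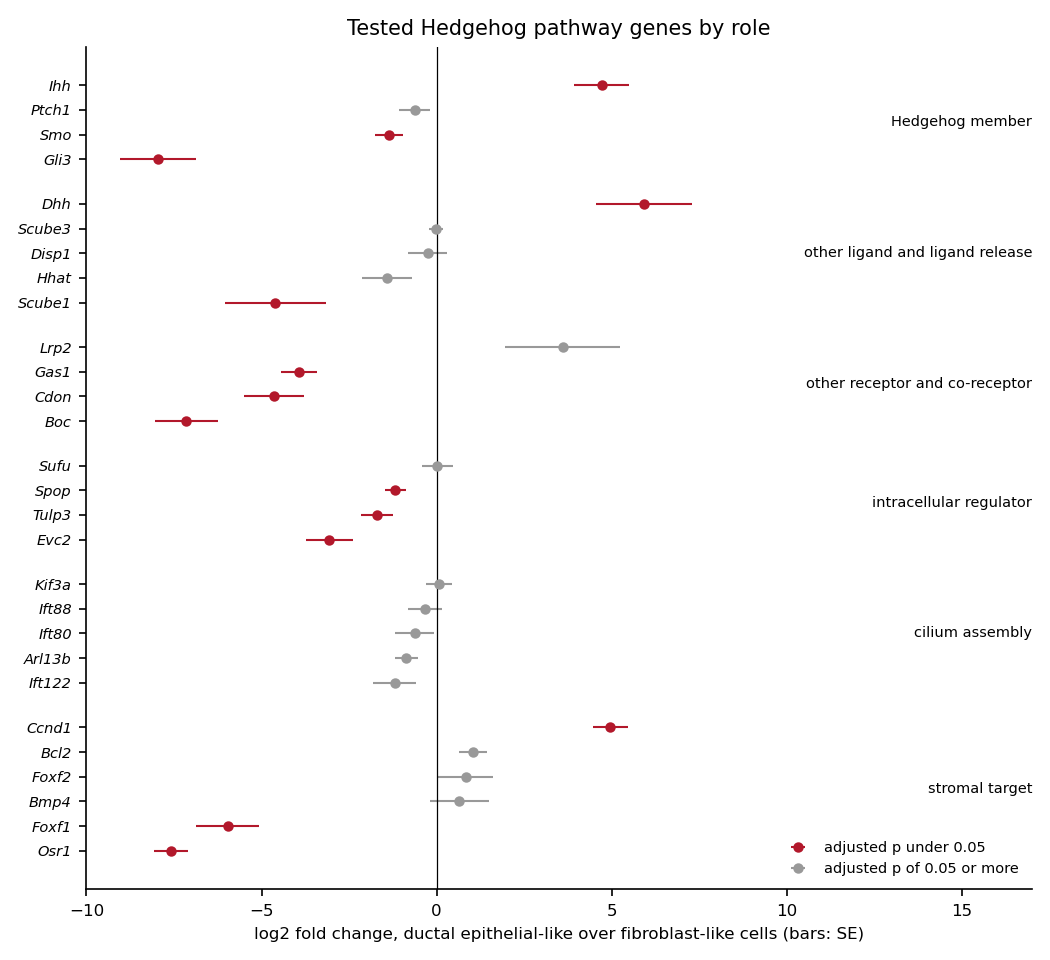
Log2 fold changes of the tested pathway genes, ductal epithelial-like over fibroblast-like cells (horizontal axis, bars are SE), grouped by role down the vertical axis and coloured by the adjusted p of edgeR's quasi-likelihood test. Ihh (4.71) and Dhh (5.92) lie to the right, and Gli3 (-7.96), Boc (-7.15), Cdon (-4.65) and Gas1 (-3.93) to the left.

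Mesothelial-like cells, the lining of the peritoneum, resembled fibroblast-like cells in which members they held. Gli3 was at 18.0 and 13.1 CPM in mesothelial-like cells of the sorted CAF libraries and at 19.8 CPM and 0 UMIs in those of the all live libraries, the last with 12 cells. Gli1 was at 5.55 CPM (8 UMIs) and 1.19 CPM (1 UMI) in the sorted CAF libraries and at 6.59 CPM (10 UMIs) and 0 UMIs in the all live libraries. By tumor, Smo was at 36.8 CPM in mesothelial-like and 29.0 CPM in fibroblast-like cells (tumor 1) and at 55.9 and 32.2 CPM (tumor 2).

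In the test over tumors, 0 of 4 tested members passed, against a background of 2.89% of 12528 genes (1.42% higher and 1.47% lower), by edgeR and by DESeq2, and 0 had an unadjusted p under 0.05 in either. Smo had a log2 fold change of 0.50 ± 0.40 (adjusted p = 0.835 by edgeR). Among the other pathway genes 1 passed. Lrp2, an endocytic receptor that binds Hedgehog ligands, had 48 UMIs (16.2 CPM) in mesothelial-like cells of tumor 1 and 9 UMIs (9.49 CPM) in tumor 2, against 0 UMIs in fibroblast-like cells of both (adjusted p = 0.0283 by edgeR). It passed the filter only through classes in which it is high, so the call adds nothing to these counts. With the 0 UMIs set to the floor of 3 counts, Lrp2 was 13.03-fold higher in tumor 1 and 35.9-fold higher in tumor 2. The counting error of the mesothelial UMIs is not in these values, so they are not lower limits.

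Pericyte-like cells gave 1 sum of at least 20 cells, from tumor 2, so that side of the comparison has no replicate and is assumed to vary like the other classes. There Ptch1 was at 14.3 CPM (9 UMIs), Smo at 28.6 CPM (18 UMIs), Gli3 at 9.54 CPM (6 UMIs) and Gli2 at 3.18 CPM (2 UMIs), with 0 UMIs of Gli1. In fibroblast-like cells of tumor 2 the same genes were at 10.4, 32.2, 18.8, 7.57 and 3.96 CPM. Of 4 tested members 0 passed by edgeR or DESeq2, and 0 had an unadjusted p under 0.05 in either, against a background of 2.85% (1.51% higher and 1.34% lower). By log2 fold change Ccnd1 was higher (3.62 ± 0.55) and Osr1 lower (-3.19 ± 0.61) in pericyte-like cells. Over all kept cells Osr1 had 6 UMIs in pericyte-like and 1027 UMIs in fibroblast-like cells. It passed the filter only through classes in which it is high, so its fold change adds nothing to these counts.

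Within fibroblast-like cells the readout genes Ptch1 and Gli1 were not even. Clustering without the pathway genes gave 7 subclusters. Subclusters 4 and 5 were named inflammatory-like and subclusters 2 and 3 myofibroblast-like from their markers, and the rest stayed unnamed, among them subcluster 1, led by cell cycle genes. Subcluster 3, led by Spp1, Tnc and Serpine2 and with the pericyte marker Cspg4 among its leading genes, had Ptch1 at 31.1 CPM (18 UMIs, 95% interval 18.4 to 49.1) in tumor 1 and at 18.5 CPM (50 UMIs, 13.8 to 24.4) in tumor 2. In the other subclusters of at least 20 cells Ptch1 was between 3.50 CPM (subcluster 5, tumor 2) and 10.2 CPM (subcluster 1, tumor 2). In tumor 2 the interval of subcluster 3 overlapped that of subclusters 1 and 4, and in tumor 1 that of subcluster 5, which had 2 UMIs.

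Gli1 was also highest by value in subcluster 3, at 17.3 CPM (10 UMIs) in tumor 1 and 8.90 CPM (24 UMIs) in tumor 2. Elsewhere it was between 1.56 and 10.1 CPM. The subcluster 3 interval overlapped those of subclusters 2 and 5 in tumor 1 (8.27 to 31.7 CPM). In tumor 2 (5.70 to 13.2 CPM) it overlapped those of subclusters 5 and 6. Gli2 was highest in subcluster 3 in tumor 2, at 12.97 CPM (35 UMIs), but at 5.18 CPM (3 UMIs) there in tumor 1. Gli3 was nearly level in tumor 2, between 16.6 and 23.6 CPM.

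Gas1, the co-receptor gene, ran the other way. It was at 91.5 CPM in subcluster 3 of tumor 1 and at 78.2 CPM in that of tumor 2, and between 152 and 460.0 CPM in the other subclusters of at least 20 cells. Cdon was likewise lowest in subcluster 3, at 13.8 and 15.2 CPM, against 66.6 and 66.5 CPM in subclusters 4 and 5 of tumor 2. Subcluster 3 was singled out after its values were seen, so these levels are given without a test.

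**Figure D4:**
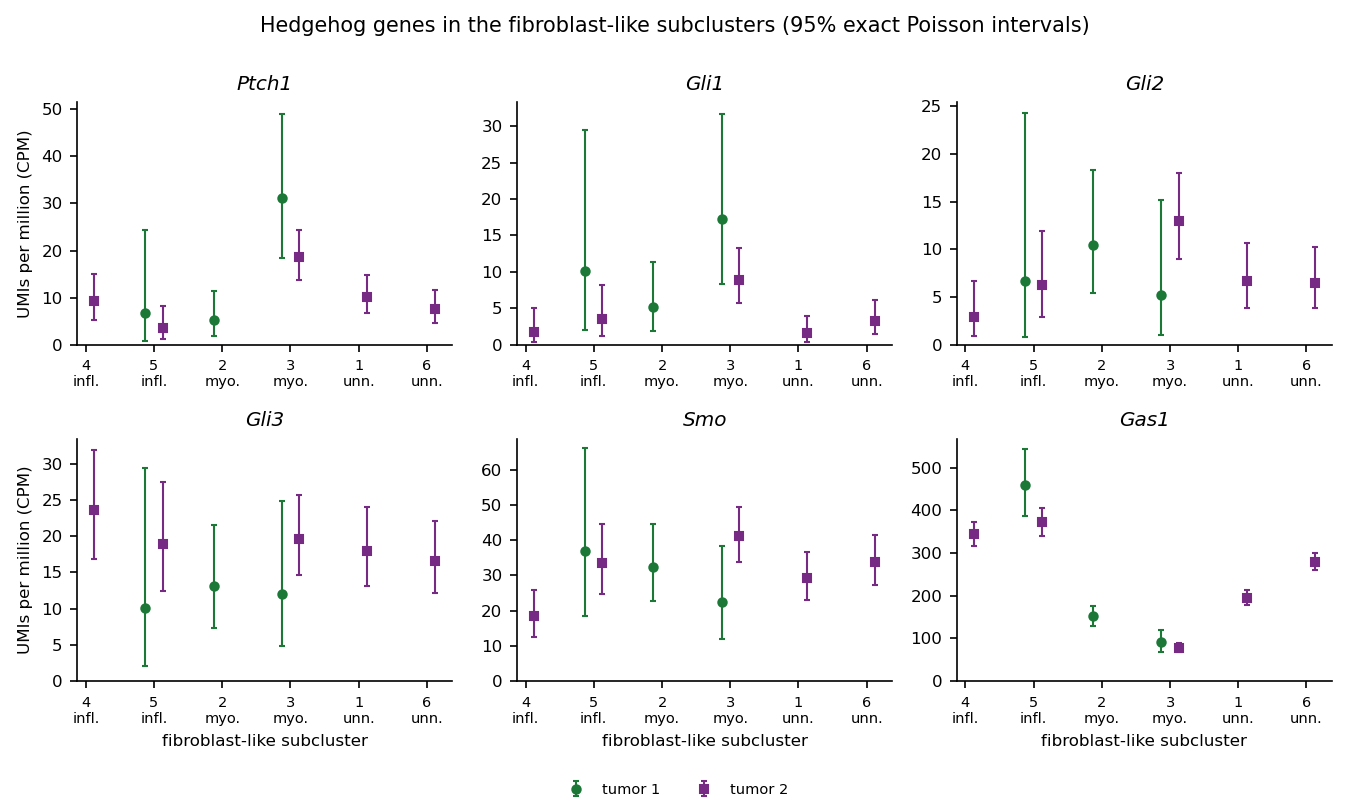
CPM (vertical axes) of 5 Hedgehog genes and Gas1 in the fibroblast-like subclusters of at least 20 cells (horizontal axes; infl., inflammatory-like; myo., myofibroblast-like; unn., unnamed), 1 point per tumor with exact Poisson 95% intervals. By value, Ptch1 and Gli1 are highest in subcluster 3 in both tumors, at 31.1 and 18.5 CPM and at 17.3 and 8.90 CPM. Their intervals overlap those of some other subclusters. Gas1 is lowest in subcluster 3.

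In the comparison of the named states, Ptch1 was at 7.83 CPM (3 UMIs) in inflammatory-like and 13.9 CPM (24 UMIs) in myofibroblast-like fibroblasts of tumor 1, and at 6.63 CPM (21 UMIs) and 18.0 CPM (50 UMIs) in tumor 2. Gli1 was at 7.83 CPM (3 UMIs) and 9.27 CPM (16 UMIs) in tumor 1, and at 2.52 CPM (8 UMIs) and 8.63 CPM (24 UMIs) in tumor 2. Gli2 was at 5.22 CPM (2 UMIs) and 8.69 CPM (15 UMIs) in tumor 1, and at 4.42 CPM (14 UMIs) and 13.3 CPM (37 UMIs) in tumor 2. Each of these genes was lower by value in the inflammatory-like state of both tumors. Gli3 was lower in tumor 1 and higher in tumor 2. In tumor 1 most myofibroblast-like cells (179 of 232) were in subcluster 2. That subcluster had Ptch1 and Gli1 at 5.23 CPM (6 UMIs each), under the inflammatory-like values. Its Gli2, at 10.5 CPM (12 UMIs), was above the inflammatory-like value. The tumor 1 order of Ptch1 and Gli1 thus rested on subcluster 3.

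Of 5 tested members, 0 passed in edgeR's test, against a background of 2.42% of 11476 genes (1.22% higher and 1.2% lower), 2 had an unadjusted p under 0.05, as did 1410 of all tested genes, and 0 passed by DESeq2. Ptch1 had a log2 fold change of -1.19 ± 0.45 (adjusted p = 0.290), Gli2 -1.29 ± 0.55 (0.365), Gli1 -1.17 ± 0.68 (0.570), Smo -0.39 ± 0.35 (0.762) and Gli3 0.15 ± 0.39 (0.940). The fit had 1 residual degree of freedom. Ptch1 passed with possible doublets kept (-1.60, adjusted p = 0.00519 by edgeR) and without subcluster 2 (-1.54, adjusted p = 0.00984), which comes almost wholly from tumor 1 and met 3 of 10 myofibroblast markers. Gas1 was higher in inflammatory-like fibroblasts (2.09 ± 0.30, adjusted p = 0.00794), at 457 CPM against 131 CPM in tumor 1 and 356 CPM against 77.7 CPM in tumor 2.

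Between the fractions, the members were first read over whole libraries. Gli3 was at 2.17 CPM in the sorted CAF and 1.49 CPM in the all live library of tumor 1, and at 14.2 and 1.34 CPM in tumor 2. Gli2 was at 0.737 and 0.485 CPM in tumor 1, and at 5.73 and 0.534 CPM in tumor 2. Gli1 was at 0.91 and 0.743 CPM in tumor 1, and at 2.83 and 0.0668 CPM in tumor 2.

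The Gli genes were thus higher by value in the sorted CAF library of each tumor, by far more in tumor 2. In tumor 1 the Poisson intervals of the fractions overlapped for each Gli gene, with 21 and 23 UMIs of Gli1. The all live Gli1 value of tumor 2 was 1 UMI. Fibroblast-like cells were 12.6% of the sorted CAF and 7.30% of the all live library in tumor 1, and 72.6% and 3.45% in tumor 2; in whole libraries, fewer cells of a type and less RNA per cell cannot be told apart. Smo was at 10.8 and 7.59 CPM in tumor 1 and at 31.2 and 6.88 CPM in tumor 2. Ptch1 was at 4.64 and 5.59 CPM in tumor 1 and at 10.7 and 5.21 CPM in tumor 2. Ihh was at 36.7 and 32.2 CPM in tumor 1 and at 1.91 and 0.334 CPM in tumor 2. The sorted CAF libraries thus held no less of this ligand RNA than the all live libraries. Ductal epithelial-like cells, which held 99.3% of the Ihh UMIs, were 76.2% of the sorted CAF library of tumor 1. They were 55.2% of its all live library. In tumor 2 they were 10.6% and 5.14%.

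**Figure D5:**
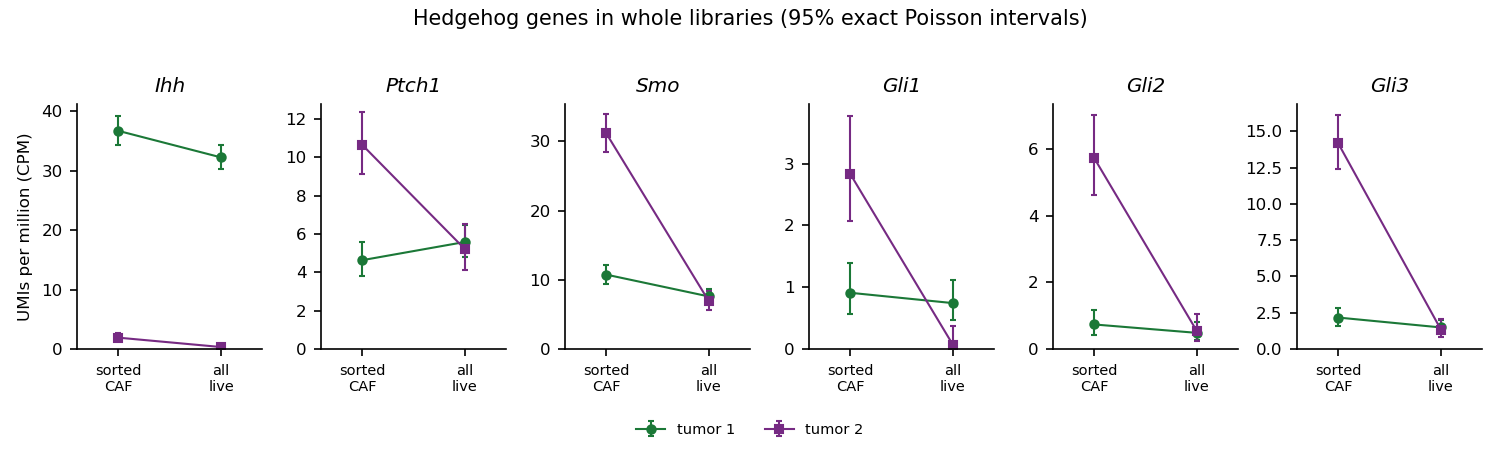
CPM (vertical axes) of 6 Hedgehog genes in whole libraries of the sorted CAF and all live fractions (horizontal axes), joined by tumor, with exact Poisson 95% intervals. The Gli genes and Smo are higher by value in the sorted CAF library of both tumors. For the Gli genes the intervals overlap in tumor 1. The difference is steep in tumor 2, where Gli3 was at 14.2 against 1.34 CPM. Ihh differs more between the tumors than between the fractions.

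Of 6 tested members 0 passed between the fractions in edgeR's test without a block. The background was 0% (0 of all 14118 genes). The unadjusted p was under 0.05 for 562 genes and 0 of the members. Both fractions come from the same tumors, and this test left that pairing out. With the tumor as a block, genes were called, as given further below, but 0 members. DESeq2 called 432 genes and 0 members, 2 of the members having an unadjusted p under 0.05. The log2 fold changes were 2.42 ± 1.15 for Gli2, 2.30 ± 1.01 for Gli3, 1.94 ± 1.26 for Gli1, 1.33 ± 0.65 for Smo, 0.30 ± 0.63 for Ptch1 and 0.19 ± 2.06 for Ihh.

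Restricted to fibroblast-like cells, 4 members were tested and 0 passed, as did 0 of 8662 genes (a background of 0%). The pairing was again left out, and with the block genes were called here too, but 0 members. By edgeR the unadjusted p was under 0.05 for 66 genes and 0 members. The calls of DESeq2 were 19 genes and 0 members. The log2 fold changes were 0.31 ± 0.48 for Gli3, 0.21 ± 0.37 for Smo, -0.10 ± 0.80 for Gli1 and -0.25 ± 0.46 for Ptch1, each smaller than its SE. The higher Gli3 and Smo of the whole sorted CAF libraries were not detectable within the class at this depth.

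The genes whose levels were most like each member were taken over 26 sums per library and class, which share their libraries, by Pearson's r of log2(CPM + 1). For Ihh these were Rsph10b (r = 0.975), Krt13 (0.974) and Atp4a (0.973). For Gli3 they were Adamtsl1 (0.960), Nsg1 (0.928) and Mgp (0.919), and for Gli2 Vgll3 (0.987), Gm11627 (0.986) and Abat (0.981). For Smo they were Ift74 (0.928), Egfr (0.927) and Wdr35 (0.894), and for Ptch1 Ppp2r3a (0.878), Sbds (0.871) and Trmu (0.869). Gli1, Shh and Hhip had under 100 UMIs and were not ranked. Among fibroblast-like cells of the sorted CAF library of tumor 2, 21.6% of 37 cells with a Gli1 UMI also had a Ptch1 UMI, against 8.20% of 841 cells without, at median depths of 15709 and 10400 UMIs. In the sorted CAF library of tumor 1 the order was the other way, with 0 of 9 cells with Gli1 against 6.06% of 165 without. The all live libraries had 33.3% of 9 against 6.92% of 130 cells in tumor 1, and 0 of 1 against 4.39% of 114 cells in tumor 2. The exact intervals of cells with and without Gli1 overlapped in all 4 libraries.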

How the data were processed

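Single cells of 2 KPC tumors were profiled with 10x Genomics 3' chemistry in 4 libraries. Each deposited matrix holds raw UMI counts of genes in barcodes, not normalized. Cell Ranger 2.0.0, CASAVA 1.4 and the build mm10 are named in the submitters' processing notes. Gene and barcode names were deposited as other text, without measurements. Libraries that share a replicate number were taken as 1 tumor, since the design text gives each biological replicate both fractions. It also speaks of technical replicates, which could not be told apart, so each library was 1 sample. How barcodes were chosen and whether counting used strand are not given in the sources used here; Shh, Gli1, Gli2, Gli3 and Hhip overlap antisense genes and Ptch1, Smo and Gli3 genes on their own strand, whose part in the counts was not tested.

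Barcodes under 500 genes or over 10% mitochondrial UMIs were dropped, which left 7984. Scrublet in scanpy 1.11.5 marked 27 cells (0.338%), under the 0.5% taken as working, so the 157 cells with the highest scores were left out. Leiden clustering at resolution 1, without the 41 pathway genes, gave 27 clusters, named "-like" from marker lists by at least 3 markers at least 2-fold higher; 27 cells stayed unnamed. Names are rebuilt and not the authors' annotation. Counts were summed per library or per tumor and class (at least 20 cells) and tested two-sided with edgeR 4.0.16 (quasi-likelihood, TMM, filterByExpr with a minimum of 10 counts) in R 4.3.3, with Benjamini-Hochberg adjustment at 0.05; classes were blocked by tumor and fractions were not. Each SE was obtained by dividing the log2 fold change by the root of its F statistic. The test was checked on simulated data. Alternatives were DESeq2 1.42.0, other scaling, filter, block, sums, doublet and resolution settings, and leaving out each library.

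Intervals are exact Poisson or Clopper-Pearson at 95% and cover counting error only, and a count of 0 allows up to 3 counts. All 8 members are named; of other pathway genes up to 6 past the threshold per comparison, smallest p first, Dhh being added after its values were seen. The members, lists and tests were chosen with earlier results of these data known. Some items are not reported here.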

Additional observations from a re-analysis of the deposited data

Results flagged for a closer look

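In 4 comparisons of 2 genes, Ptch1 and Gli3, the direction of a difference was opposite in the 2 tumors, and whether the tumors differ was not tested. Ptch1 in whole libraries differed by -0.951 CPM between the sorted CAF and the all live library of tumor 1 (lower in sorted CAF) and by 5.44 CPM in tumor 2. The Poisson intervals of the 2 libraries overlapped in tumor 1 (3.80 to 5.61 and 4.79 to 6.49 CPM) and not in tumor 2. Between mesothelial-like and fibroblast-like cells the Ptch1 difference was -2.24 CPM in tumor 1 and 0.154 CPM in tumor 2, and that of Gli3 was 4.81 CPM in tumor 1 and -7.16 CPM in tumor 2. Between inflammatory-like and myofibroblast-like fibroblasts the Gli3 difference was -2.30 CPM in tumor 1 and 2.39 CPM in tumor 2. In tumor 1 the inflammatory-like subclusters 4 and 5 held only 1 and 3 Gli3 UMIs.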

How the results depend on the processing

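With 2 tumors, few UMIs per member and 1 to 6 residual degrees of freedom, the tests have little precision, and counts of called genes moved more than member directions. Of the fold changes of members recomputed, 256 kept their direction and side of the threshold, 3 passed newly, 4 no longer passed and 19 changed sign, all 19 of them for members that passed in neither fit. The 240 class levels recomputed moved by less than their counting interval. At resolution 1.5 the fibroblast-like, mesothelial-like and pericyte-like clusters had unchanged cell numbers in every library, so that setting tested little there. Of 112 shares, 24 moved when thinned to 4000 UMIs. The cause of each change below was not tested.

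Sums of the same tumor formed the pairing. With the replicate block, 189 genes were called between whole libraries and 85 between fibroblast-like cells (0 without), and Gli1 in fibroblast-like cells was 0.29. Without the block, 163 genes were called for mesothelial-like, 165 for pericyte-like and 50 for inflammatory-like cells, against 362, 357 and 278 with it, and Ptch1 in pericyte-like cells was 0.081. Adding or dropping the block changed no call of a member other than that of Smo in ductal epithelial-like cells, given above.

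DESeq2 called 432 genes between whole libraries, 19 between fibroblast-like cells and 159 between fibroblast states, with Gli1 at 0.095 in fibroblast-like and Ptch1 at 0.028 in pericyte-like cells. Testing every gene with a count gave 66, 1003, 946 and 671 calls for fibroblast-like fractions, mesothelial-like, pericyte-like and inflammatory-like cells. Sums per library and class, which treat fractions of a tumor as replicates, gave 6042 calls for ductal epithelial-like (3743 otherwise), 1066, 646 and 688 for the same last 3 classes, and Ptch1 at 0.17 in pericyte-like cells. In all live libraries only, 114 genes were called for mesothelial-like and 106 for inflammatory-like cells, with Ptch1 at 0.17 and Gli3 at 0.30 in mesothelial-like cells. With doublets kept, fibroblast states gave 1172 calls and Gli1 between fractions was 0.019; at resolution 0.8 they gave 479, and without subcluster 2, an alternative chosen after seeing the data, 1342. With RLE size factors Ptch1 in pericyte-like cells was 0.015.

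Leaving out 1 library at a time gave 19 to 65 calls between fibroblast-like fractions, 116 (without the sorted CAF library of tumor 2) to 430 for mesothelial-like, 221 (without the all live library of tumor 1) to 378 for pericyte-like and 74 (without the sorted CAF library of tumor 2) to 676 (without the sorted CAF library of tumor 1) for inflammatory-like cells. Without the all live library of tumor 1 the calls were 206 for mesothelial-like and 458 for inflammatory-like cells. Between whole libraries Ihh ranged from -3.23 to 5.73 (-0.79 without the all live library of tumor 2) and Ptch1 from -0.26 to 0.84. Between fibroblast-like fractions Gli1 ranged from -0.68 to 2.00 (0.53 without the sorted CAF library of tumor 2), Ptch1 from -0.47 to 0.20, Smo from -0.14 to 0.61 and Gli3 from -0.24 to 0.99. Ptch1 in pericyte-like cells ranged from -0.11 to 0.11, and Gli3 between fibroblast states from -0.037 to 0.37. For pericyte-like cells, the fits in all live libraries only and without the sorted CAF library of tumor 2 were not run, since no sum of 20 cells was left.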

Other observations

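The 3 pathway genes given here, none of them among the 8, were chosen after their values were seen. Foxf2, a transcription factor gene on the list of stromal targets, was at 13.7 CPM (tumor 1) and 2.68 CPM (tumor 2) in ductal epithelial-like cells, against 4.98 and 3.08 CPM in fibroblast-like cells, and did not pass between the classes (log2 fold change 0.83 ± 0.78 SE, adjusted p = 0.471 by edgeR). Its paralog Foxf1 was lower in ductal epithelial-like cells, as given above, with 5 of its 347 UMIs there and 184 in fibroblast-like cells. Disp1, which releases the lipid-bearing ligand from the cell that makes it, had -0.26 ± 0.57 (adjusted p = 0.776 by edgeR) and did not pass.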
